A study of Mus musculus with 10 samples.

Results

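The 10 genes described here carry glucose into the cell and turn it into lactate, and they were picked by symbol for that role. They are the glucose transporter Slc2a1, the hexokinases Hk1 and Hk2, the phosphofructokinases Pfkp and Pfkl, the aldolase Aldoa, Gapdh, the kinase Pgk1, the enolase Eno1 and the lactate dehydrogenase Ldha. All 10 were found among the 23234 gene symbols of the expression table, and all 10 passed the filter on low values, their lowest value in any library being 3.71 FPKM (a level scaled to transcript length and to the number of mapped fragments).

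RNA was sequenced from 10 libraries of mouse ovarian follicle cells. Cumulus cells, which enclose the oocyte, came from C57BL/6 mice aged 2 months (n = 3) or 10 months (n = 3), and mural granulosa cells, the layer along the wall of the follicle, from C57BL/6 mice aged 2 months (n = 2). The labels' protocol names mice primed with eCG, a gonadotropin, as the source of the mural cells. The sources used here do not give priming for the donors of cumulus cells. Whole cumulus-oocyte complexes came from mice aged 3 weeks primed with PMSG, another name for eCG, with 1 library of the DBA/2 strain and 1 of BDF1, a hybrid of the C57BL/6 and DBA/2 strains. All labels name the same basic medium, which holds pyruvate, serum albumin and milrinone, an inhibitor of the phosphodiesterase that breaks down cyclic AMP. The labels do not state that the libraries of a group stem from different mice, so each p-value speaks only for the spread among these libraries, part or all of which could be technical.

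Glycolysis splits glucose into pyruvate and yields ATP without oxygen, and lactate dehydrogenase turns pyruvate into lactate while it restores the cofactor that the pathway uses. In the follicle the oocyte takes up little glucose and has low activity of phosphofructokinase. Cumulus cells feed it pyruvate through gap junctions, and factors secreted by the oocyte raise the transcripts of glycolytic enzymes in cumulus cells. Hypoxia-inducible factors, which bind a core of ACGTG in DNA, and MYC, which binds the E-box CACGTG, are known activators of many genes of this pathway.

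Promoter sequences were read to show which of the 10 genes hold those letters, since 9 of them differed in the same direction between cumulus and mural cells (below). RefSeq's table for build GRCm38.p6 held 16 promoters of the 10 genes, each of 250 bases before to 50 bases after a start, and the expression values rest on another build, mm9. The 160 bases from 170 to 11 bases before the start are printed here, 5′ to 3′ on the strand of the gene, for 3 genes with an ACGTG core and for Pfkp, the member with the largest difference, which had none. Capitals mark ACGTG on either strand, and a run of CACGTG holds it on both strands. The stretches lie at chr7:46845634-46845793 (Ldha, plus strand), chrX:106186930-106187089 (Pgk1, plus strand), chr6:82774465-82774624 (Hk2, minus strand) and chr13:6648782-6648941 (Pfkp, minus strand).
Ldha: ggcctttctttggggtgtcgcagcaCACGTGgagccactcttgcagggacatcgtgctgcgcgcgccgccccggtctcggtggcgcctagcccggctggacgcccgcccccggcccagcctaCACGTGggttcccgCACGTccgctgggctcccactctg
Pgk1: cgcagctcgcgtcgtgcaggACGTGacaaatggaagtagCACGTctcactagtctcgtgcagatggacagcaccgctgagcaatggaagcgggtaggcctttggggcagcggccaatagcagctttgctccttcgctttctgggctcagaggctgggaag
Hk2: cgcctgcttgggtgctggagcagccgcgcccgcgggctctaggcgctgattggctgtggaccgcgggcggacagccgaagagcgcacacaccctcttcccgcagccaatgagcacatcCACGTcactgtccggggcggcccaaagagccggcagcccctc
Pfkp: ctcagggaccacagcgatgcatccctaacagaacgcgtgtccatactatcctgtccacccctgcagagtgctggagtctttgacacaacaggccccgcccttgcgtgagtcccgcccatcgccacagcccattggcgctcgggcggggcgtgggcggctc

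The Ldha stretch holds 3 separate matches, 2 of them full CACGTG. The bases after its RefSeq start were not found in the GENCODE vM21 transcripts of Ldha, whereas those after the other RefSeq start of Ldha were, and the promoter of that start held no match. Pgk1 has 2 matches in the stretch, and Hk2 has 1 there and 1 farther upstream, at -226 from the start. In the full windows of 300 bases, ACGTG was found for 7 of 10 genes (Slc2a1, Hk1, Hk2, Aldoa, Gapdh, Pgk1 and Ldha), beside 21.8% of the 27025 genes in the table and 29.6% of the 8675 tested genes with a promoter. A gene counted when any of its promoters held a match, and genes differ in their number of promoters. By promoter, ACGTG was found in 8 of 16, beside 19.6% of all 32851 promoters. Matches for Gapdh and Hk1 did not lie wholly before the start. CACGTG was found for 1 of 10 genes (Ldha), beside 8.1% of genes and 12% of tested genes. The GC box GGGCGG, a site of SP factors, was found for 8 of 10, beside 38.2% of genes and 69.8% of tested genes. A match is a description of the letters in a window, both strands searched, and no binding was measured.

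Enzymes of the later steps had the highest levels of the 10 genes in cumulus cells. The order of mean levels at 2 months was Gapdh, Ldha, Aldoa, Pgk1, Eno1, Pfkl, Pfkp, Slc2a1, Hk2 and Hk1, running from 2101 ± 299 FPKM for Gapdh to 8.53 ± 0.947 FPKM for Hk1 (SD, n = 3). Ldha and Aldoa were the only neighbours in that order whose libraries overlapped. In mural cells the order was Gapdh, Aldoa, Ldha, Eno1, Pgk1, Pfkl, Slc2a1, Pfkp, Hk1 and Hk2, so that Ldha and Pfkp stood lower in the ranking and Hk1 above Hk2. Libraries overlapped there between Eno1 and Pgk1, between Pfkp and Hk1 and between Hk1 and Hk2. Summed over the 10 genes, FPKM made up 0.889 to 1.04% of a cumulus library at 2 months, 0.703 to 0.936% at 10 months, 0.479 and 0.539% of the mural libraries, and 0.830 and 0.845% of the BDF1 and DBA/2 complexes.

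**Figure D1:**
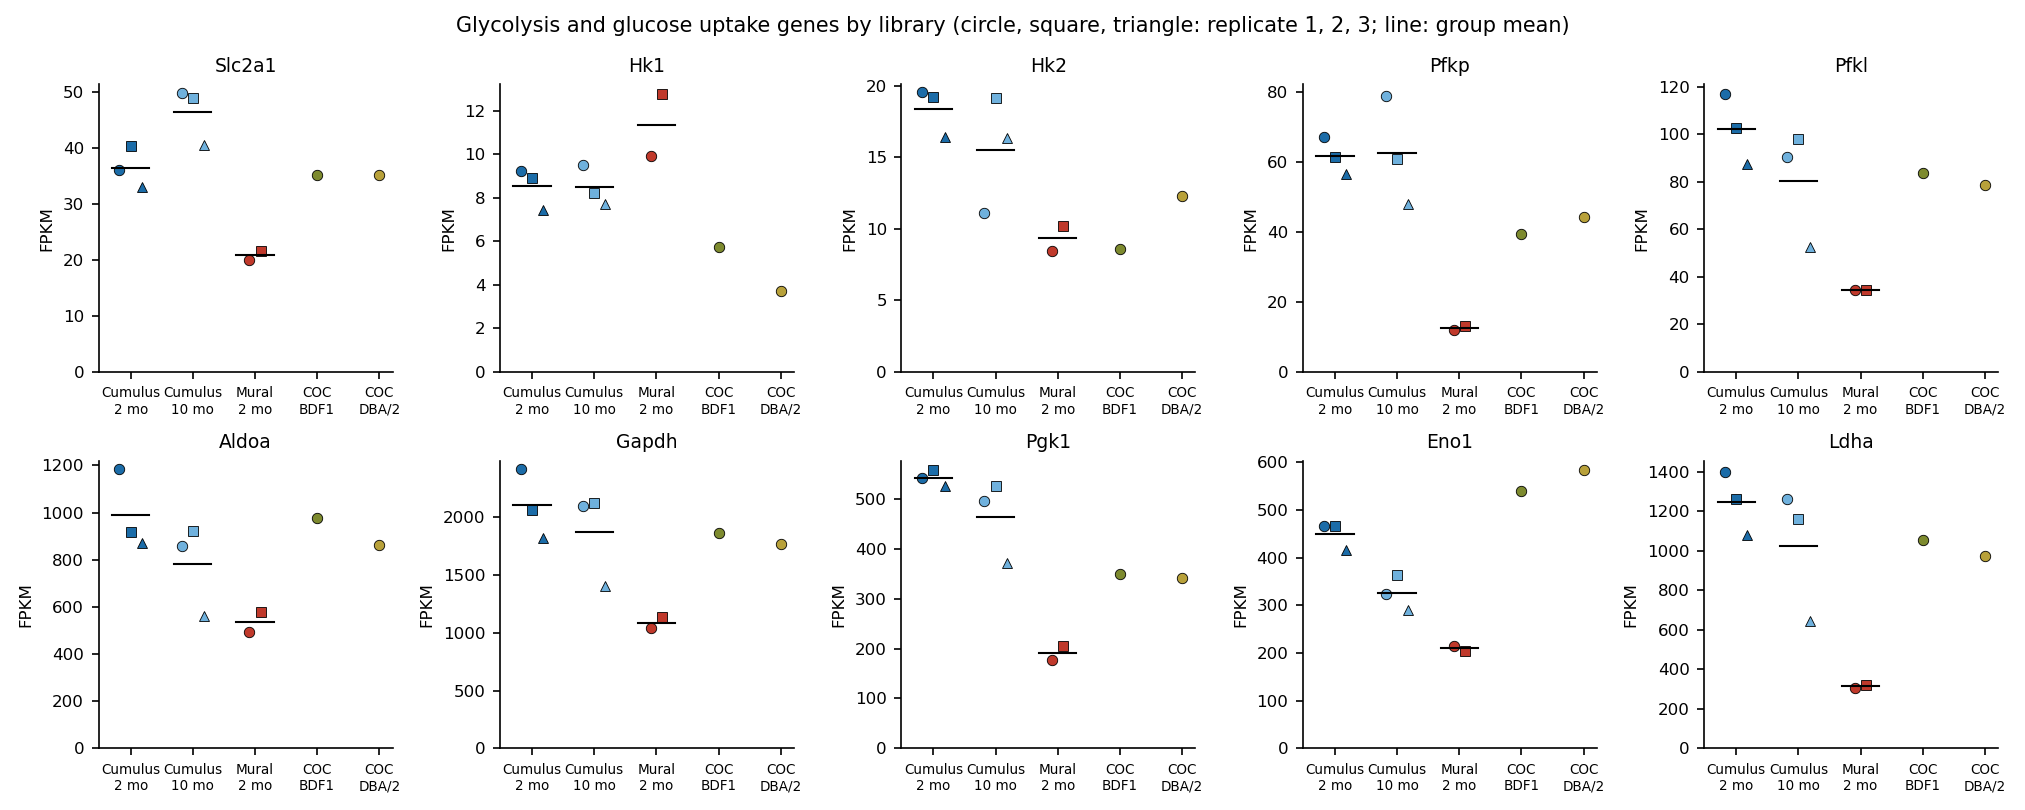
Level of each gene in FPKM (y axis, linear from 0) in every library, by group (x axis); circles, squares and triangles are replicates 1, 2 and 3, and lines are group means. The mural libraries lie below all cumulus libraries for 9 genes against 2 months, and above them for Hk1.

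Mural granulosa cells held less transcript of nearly the whole set than cumulus cells of the same age. By limma's test on log2(FPKM + 1), 9 of the 10 genes were lower in mural cells, beside 11.2% of all 12412 genes tested, and 0 were higher, beside 9.69% of all genes. The only gene that did not pass was Hk1, and 0 of the 10 were higher at an unadjusted p under 0.05. The median log2 difference of the 10 genes was -1.02, against -0.08 over all tested genes. In 9 of 10 genes both mural libraries lay below all 3 cumulus libraries, beside 32.0% of all genes, and for Hk1 both lay above, beside 25.6%. In bulk samples, fewer cells of a type and less RNA per cell cannot be told apart. Priming is given for the donors of mural cells only, so cell type and a possible difference in priming cannot be told apart either.

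Glucose enters the cell through Slc2a1 (GLUT1), a carrier of the plasma membrane. Its level was 36.1, 40.3 and 33.0 FPKM in the cumulus libraries at 2 months and 20.02 and 21.6 FPKM in the mural libraries. The groups did not overlap, and the mean was 1.75-fold higher in cumulus cells (log2 difference of mural minus cumulus -0.78 ± 0.15 SE, limma adjusted p = 0.0128). Among the other carriers of the list, 3 of 12 passed the filter, and 1 fell, the sodium-linked Slc5a2, which is low in cumulus cells (2.40, 2.82 and 2.17 FPKM) and listed at 0.326 and 0 FPKM in mural cells. Slc2a3, the high-affinity carrier of neurons, was at or below 0.736 FPKM in every cumulus and mural library.

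Hexokinases trap glucose in the cell by phosphorylation, and the pair moved differently. Hk2, the inducible form, was at 19.5, 19.2 and 16.4 FPKM in cumulus cells and at 8.46 and 10.2 FPKM in mural cells, a 1.97-fold difference (log2 -0.91 ± 0.22, limma adjusted p = 0.0278). Hk1, the form of most tissues, was at 9.23, 8.91 and 7.45 FPKM in cumulus cells and at 9.91 and 12.8 FPKM in mural cells (log2 0.37 ± 0.17, limma adjusted p = 0.162). Mural values of Hk1 thus lay above every cumulus value by a margin that did not pass the test. It passed as higher, with an adjusted p of 0.0422, once all libraries were scaled to an equal FPKM sum (log2 0.60).

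Phosphofructokinase commits sugar to glycolysis, and its platelet form Pfkp showed the largest difference of the 10 genes. Pfkp was at 67.0, 61.3 and 56.4 FPKM in cumulus cells and at 11.96 and 13.1 FPKM in mural cells. This 4.92-fold difference (log2 -2.21 ± 0.21, limma adjusted p = 0.00203) was far larger than the spread within either group. The liver form Pfkl was at 117, 103 and 87.3 FPKM in cumulus cells and at 34.26 and 34.32 FPKM in mural cells, a 2.98-fold difference (log2 -1.54 ± 0.27, limma adjusted p = 0.00965). The muscle form Pfkm, which is no member, stood at 15.9 ± 1.05 FPKM (n = 3) in cumulus and 22.2 ± 1.12 FPKM (n = 2) in mural cells, and did not pass (log2 0.45 ± 0.18, limma adjusted p = 0.113).

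The next enzymes of the pathway were also lower in mural cells. Aldoa, which cleaves the sugar into triose phosphates, was at 1184, 918 and 870 FPKM in cumulus cells and at 494 and 577 FPKM in mural cells (1.85-fold, log2 -0.88 ± 0.26, limma adjusted p = 0.0478). Gapdh, the dehydrogenase often used as a reference gene, was at 2417, 2063 and 1823 FPKM against 1039 and 1135 FPKM (1.93-fold, log2 -0.94 ± 0.24, limma adjusted p = 0.0322). No library of one cell type reached the other in either gene. Pgk1, which makes the ATP that follows the Gapdh step, was at 543, 557 and 525 FPKM in cumulus cells and at 177 and 206 FPKM in mural cells. It was the tightest of the 10 genes among the cumulus libraries relative to its mean, and the difference was 2.83-fold (log2 -1.50 ± 0.19, limma adjusted p = 0.00484).

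Eno1 dehydrates phosphoglycerate near the end of the pathway. It stood at 466, 468 and 416 FPKM in cumulus cells and at 216 and 204 FPKM in mural cells, a 2.14-fold difference without overlap (log2 -1.09 ± 0.15, limma adjusted p = 0.00593). The table also lists Gm5506 (Eno1b), a copy of Eno1 without introns. Its GENCODE transcript matches that of Eno1 at 1727 of 1736 aligned bases (99.5%), so reads can be assigned to either. Gm5506 was at 468, 326 and 235 FPKM in cumulus cells and at 138 and 163 FPKM in mural cells, and Eno1 held 44.5 to 70.4% of the sum of both over all 10 libraries. The sum was also lower in mural cells (log2 -1.12, limma adjusted p = 0.0296), a comparison added after the data were seen. Pseudogenes of Gapdh, Ldha, Pgk1 and Aldoa exist as well, and the sources used here do not give how the authors' estimates split reads among them.

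Ldha, the form of lactate dehydrogenase that favours the making of lactate, showed the second largest difference. It stood at 1400, 1261 and 1078 FPKM in cumulus cells and at 304 and 322 FPKM in mural cells. The ratio was 3.98-fold (log2 -1.98 ± 0.30, limma adjusted p = 0.00676), and no cumulus library came near the mural range.

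**Figure D2:**
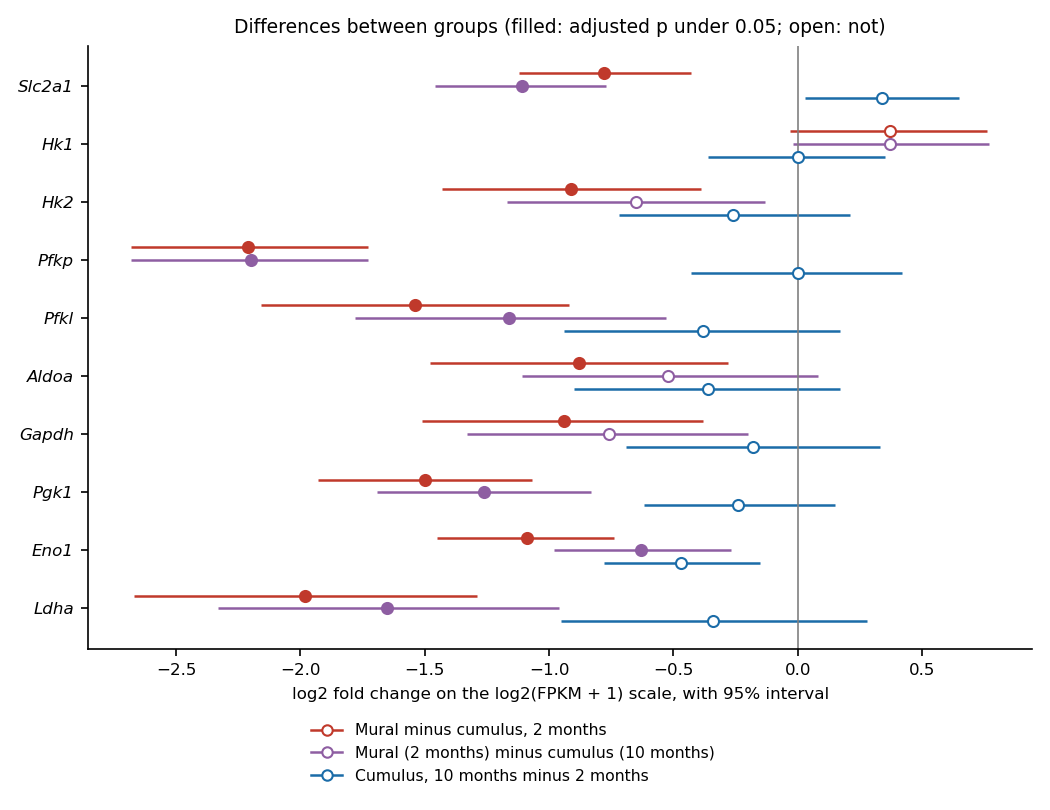
Log2 difference on the log2(FPKM + 1) scale (x axis) with its 95% interval from limma for each gene (y axis) in 3 comparisons, which share libraries; filled points passed at an adjusted p under 0.05 and open points did not. Pfkp at -2.21 and -2.20 lies farthest to the left, Hk1 lies right of 0 in both comparisons with mural cells, and no point of the comparison by age is filled.

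The count of 9 rests on few libraries. It was 4 without mural replicate 1, 1 (Pfkp) without mural replicate 2 and 5 without cumulus replicate 2 at 2 months, while all 9 differences stayed below 0 in each of these fits and the calls over all genes fell as well, from 1396 lower to 342, 28 and 565. Rescaling each library to the same sum left 7 lower and 1 higher (Hk1), and turned the split over all genes from 1396 lower and 1203 higher to 809 lower and 1844 higher, with the median of all genes at 0.14.

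Several marker lists moved with the cell type too. Mural markers such as Cyp11a1 and Lhcgr were higher in mural cells for 9 of 10 genes and summed to 5906 and 8673 FPKM there, against 354 to 455 FPKM in cumulus cells at 2 months, in keeping with the labels. Theca and stroma markers, of cells around the follicle, were higher for 8 of 10 tested genes and summed to 306 and 437 FPKM in mural cells, against 29.7 to 33.4 FPKM. Endothelial markers were higher for 5 of 6 tested genes and summed to 27.2 and 70.7 FPKM, against 1.73 to 5.35 FPKM. Immune markers were higher for 2 of 6 and surface epithelium markers for 1 of 9, with 3 and 6 higher at an unadjusted p under 0.05. Stress and dissociation genes such as Fos and Egr1 were lower for 4 of 8 and summed to 379 and 127 FPKM, against 1042 to 2390 FPKM. At an unadjusted limma p under 0.05, 5 of the 8 were lower and 2 higher. The 2 were Hspa1a and Hspa1b, each at log2 0.82, with both mural libraries above all cumulus libraries at 2 months. Erythroid markers summed to 141 and 82.7 FPKM in mural cells, against 13.7 to 21.4 FPKM. Of 5 tested, 1 was higher (Hba-a1, log2 4.72) and 1 lower (Alas2, -2.57). Oocyte markers summed to 140 and 18.6 FPKM, against 3.71 to 1098 FPKM, and of 11 tested 0 passed in either direction. The part of these lists in the differences of the 10 genes was not tested. Of the cumulus markers, 3 of 7 tested were lower in mural cells (Kctd14, Amh and Npr2) and 1 was higher (Igfbp2), and Slc6a13 was at or near 0 in all libraries.

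Set against genes that are commonly used as references, the picture for the 10 genes kept its direction. The 14 such genes had a median log2 difference of -0.34. Relative to the mean of these genes in each library, 9 of the 10 glycolytic genes were lower in both mural libraries than in all 3 cumulus libraries at 2 months, by 0.51 (Slc2a1) to 1.94 (Pfkp) on the log2 scale, and Hk1 was higher by 0.63.

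Shares within enzyme families describe how the transcript of a family was split among its forms in a library, because FPKM is scaled to length. They are shares of transcript and not of protein. Pfkp made up 33.4, 34.2 and 35.3% of phosphofructokinase transcript in cumulus cells at 2 months, while the mural libraries held 17.7 and 18.6%. Pfkm held 8.92 ± 0.908% (SD, n = 3) in cumulus cells and 32.2 ± 0.713% (n = 2) in mural cells, and Pfkl held 56.8 ± 1.83% and 49.7 ± 1.36%. Hk1 held 31.7 ± 0.424% of hexokinase transcript in cumulus cells and 54.7 ± 0.992% in mural cells. Ldha held 87.9, 89.6 and 74.6% of the sum of Ldha and Ldhb in cumulus cells and 66.0 and 72.2% in mural cells, where the lowest cumulus library, replicate 3, lay close to the mural range. Groups did not overlap for any of these shares, and each gave a two-sided exact permutation p of 0.2, the smallest that 3 against 2 libraries allow. Slc2a1 held 76.7 ± 2.48% of the summed sugar carriers of its family in cumulus cells at 2 months, 82.2 ± 1.55% at 10 months and 58.5 ± 3.00% in mural cells, with no overlap among these groups. Aldoa and Eno1 held 96.7% or more of their families in every cumulus and mural library, with Gm5506 left out of the sum for Eno1.

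**Figure D3:**
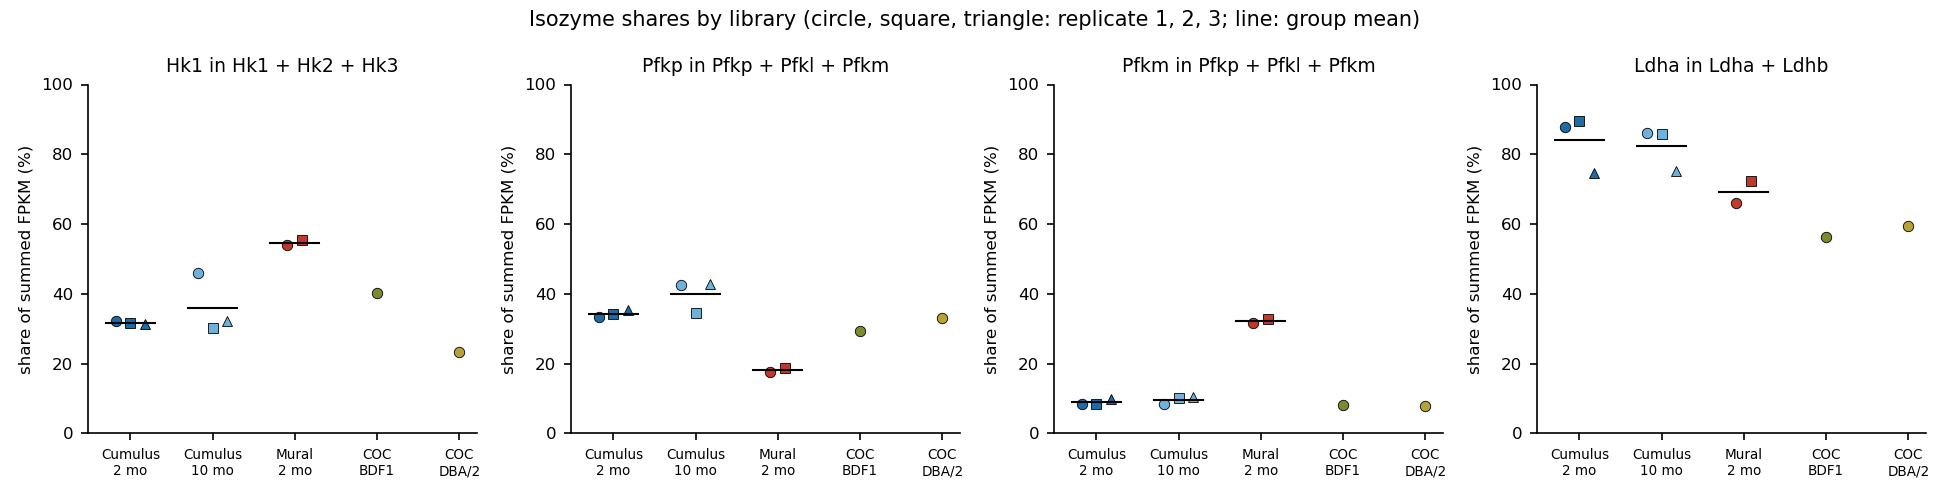
Share of summed FPKM within a family in percent (y axis, 0 to 100) for Hk1, Pfkp, Pfkm and Ldha in every library by group (x axis); circles, squares and triangles are replicates 1, 2 and 3, and lines are group means. Pfkm lies between 8.33 and 10.3% in cumulus libraries and at 31.7 and 32.7% in mural libraries, and the share of Ldha is lowest in the complexes, at 56.3 and 59.5%.

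The other enzymes of the pathway went the same way where they passed. Of 20 such genes in the table, 12 passed the filter, and 4 were lower in mural cells and 0 higher, with 5 lower and 2 higher at an unadjusted p under 0.05. The 4 were the triose phosphate isomerase Tpi1 (711 ± 110 against 235 ± 19.2 FPKM, log2 -1.58), the pyruvate kinase Pkm2 (1038 ± 137 against 341 ± 27.9 FPKM, log2 -1.60), Gpi1 (196 against 96.97 FPKM, log2 -1.0) and Aldoc (log2 -1.15). Lactate leaves cells through monocarboxylate carriers, which were listed together with pyruvate carriers. Of the 6 tested genes of that list (Slc16a1, Slc16a3, Bsg, Emb, Brp44 and Brp44l), 1 was lower in mural cells. That gene was Slc16a3 (MCT4), a carrier of strongly glycolytic cells, at 112 ± 22.2 FPKM in cumulus and 34.9 ± 4.11 FPKM in mural cells (log2 -1.64, limma adjusted p = 0.0188). Among entry points to the citric acid cycle, 1 of 7 passed, the pyruvate carboxylase Pcx, which was higher in mural cells at 27.5 ± 3.72 against 5.60 ± 0.821 FPKM (log2 2.11, limma adjusted p = 0.0019).

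Regulators of the pathway split in direction, with 3 of 12 lower and 2 higher in mural cells. Lower were Pfkfb3, whose product activates phosphofructokinase (log2 -1.27), Pdk1, a kinase that shuts pyruvate dehydrogenase (-1.25), and 9630033F20Rik (Tigar), which opposes phosphofructokinase (-0.57). Higher were Pfkfb4, a relative of Pfkfb3 (1.51), and Pdk2, a relative of Pdk1 (1.28), the latter named after its value was seen. Pathways that branch off glycolysis were counted in the same way. In the hexosamine list 2 of 8 were lower, including Gfpt2, which feeds the hyaluronan matrix (log2 -1.54), and 1 was higher (Ogt, 1.11). In the pentose phosphate list 2 of 10 were lower (Prps1 and Prps2, each -0.97) and 0 higher. Of the gluconeogenesis and glycogen genes, 3 of 10 were lower (Fbp1, -2.09, Pgm2, -1.22, and Pygb, -1.31) and 1 higher (Pck2, 1.68).

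Genes around the hypoxia and MYC pathways were also counted. Of 18 hypoxia targets outside glycolysis, 9 were lower in mural cells and 1 higher, with a median of -0.63. The 4 with the smallest p were Ak4 (log2 -1.81), Ndufa4l2 (-2.97), Kdm3a (-0.75) and Ddit4, the one that was higher (1.71). Of 12 regulators, 5 were lower and 0 higher: Epas1, which encodes HIF2 alpha (-1.44), the oxygen sensor Egln1 (-1.13), Mycn (-1.80), Mxi1 (-0.66) and, named after its value was seen, Max (-0.48). Hif1a and Myc did not pass, at log2 -0.27 (limma adjusted p = 0.484) and -0.15 (0.759).

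**Figure D4:**
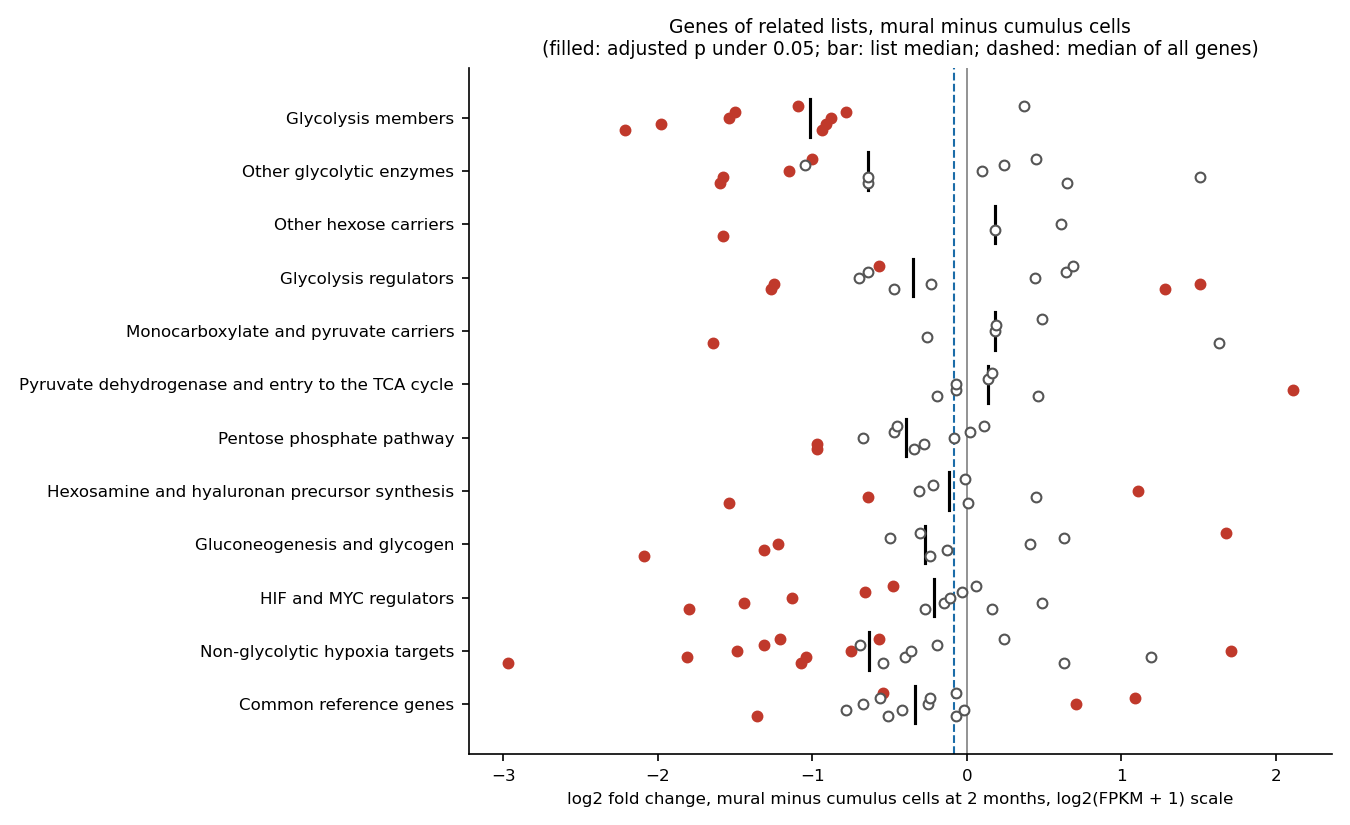
Log2 difference of mural minus cumulus cells at 2 months on the log2(FPKM + 1) scale (x axis) for each tested gene of 12 lists (y axis); filled points passed at a limma adjusted p under 0.05, vertical bars are list medians and the dashed line is the median of all genes at -0.08. The 10 glycolysis genes have the lowest list median, at -1.02, and the list of glycolysis regulators holds filled points on both sides of 0.

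Age moved none of the 10 genes past the test in cumulus cells. By limma, 0 of 10 were lower and 0 higher at 10 than at 2 months, beside 0% and 0% of all tested genes, the smallest adjusted p of any gene being 0.0869. At an unadjusted p under 0.05, 1 of the 10 was lower (Eno1), beside 6.19% of all genes, and 1 higher (Slc2a1), beside 7.73%. These were also the genes whose groups did not overlap, 1 below, beside 8.88% of all genes, and 1 above, beside 8.93%. The median log2 difference of the 10 genes was -0.25, against -0.02 over all genes.

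Slc2a1 was at 49.8, 48.8 and 40.5 FPKM at 10 months, each above the highest library at 2 months, 40.3 FPKM. The ratio was 1.27-fold (log2 0.34 ± 0.13, limma adjusted p = 0.324). Eno1 was at 324, 364 and 291 FPKM at 10 months, each below the lowest library at 2 months, 416 FPKM (log2 -0.47 ± 0.14, limma adjusted p = 0.245). With Gm5506 added the sum for Eno1 differed by log2 -0.38 (limma adjusted p = 0.552), and its groups overlapped.

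The other members overlapped between ages, and a single library sat low in most of them. Ldha was at 1263, 1162 and 644 FPKM at 10 months, Aldoa at 860, 923 and 562 FPKM, and Gapdh at 2096, 2124 and 1408 FPKM, so that replicate 3 was the low value in each. Pgk1 was at 496, 527 and 372 FPKM, Pfkl at 90.5, 98.1 and 52.6 FPKM, and Pfkp at 78.8, 60.8 and 48.0 FPKM. Hk1 was at 9.52, 8.23 and 7.74 FPKM, and Hk2, the exception, was lowest in replicate 1 at 11.1 FPKM, with 19.1 and 16.3 FPKM in the others. Replicate 3 was thus the lowest of its group for 9 of 10 genes. Its FPKM over all genes also had the lowest sum of the group, 489474 against 563913 and 592161 in replicates 1 and 2. The 10 genes made up 0.703% of that sum, against 0.936 and 0.901%. How many of all genes were lowest there was not counted. For the 8 genes other than Eno1 and Slc2a1 the limma adjusted p ran from 0.523 to 0.998, and intervals of the difference reached from -0.95 (Ldha) to 0.42 (Pfkp) on the log2 scale.

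That library also had a higher sum of mural markers, 1942.5 FPKM against 458.5 and 929.8 in replicates 1 and 2. Erythroid markers summed to 136 FPKM, against 23.4 and 22.01 FPKM. Most of the mural sum came from Cyp11a1 (773 FPKM) and Hsd3b1 (757 FPKM). Most of the erythroid sum came from Hba-a1 (70.8 FPKM), Hbb-b2 (39.1 FPKM) and Hbb-b1 (17.8 FPKM). Not every gene of these lists was higher in replicate 3. The mural marker Nppc, at 16.05 FPKM, and the erythroid marker Alas2, at 7.58 FPKM, were the lowest of the group there. Surface epithelium markers summed to 123 FPKM there, against 58.99 and 59.01 FPKM, and endothelial markers to 24.7, against 4.54 and 6.71 FPKM. Their part in the low values of the 9 genes was not tested. Without replicate 3, the log2 difference by age was -0.03 for Ldha, -0.14 for Aldoa, 0.02 for Gapdh, -0.08 for Pgk1, -0.11 for Pfkl and 0.17 for Pfkp. Eno1 and Slc2a1 kept differences of -0.39 and 0.43 without it, and neither passed (limma adjusted p = 0.408 and 0.382).

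At 2 months too, 1 library was the lowest throughout, replicate 3, for 10 of 10 genes, by a smaller margin. Its FPKM sum was also the lowest of the group, 552361 against 603460 and 556090 in replicates 1 and 2. How many of all genes were lowest there was not counted. Oocyte markers of replicate 3 summed to 1098 FPKM, against 208 in replicate 1 and 3.71 in replicate 2, where 9 of 13 were listed at 0, and the complexes held 3056 and 3047 FPKM. Its Ldhb, at 367 FPKM, and Bpgm, at 90.7 FPKM, were also above replicates 1 and 2 (193.5 and 146 FPKM for Ldhb, 28.6 and 10.0 FPKM for Bpgm). The part of these markers in the low values of the 10 genes was not tested. Without this library, 8 of 10 genes were lower in mural cells, all but Hk1 and Aldoa.

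Of the markers of other cells, 0 passed by age by limma either. At an unadjusted p under 0.05, mural markers were higher at 10 months for 8 of 10 tested genes (median log2 difference 1.83), theca and stroma markers for 7 of 10 (1.5) and immune markers for 5 of 6 (1.93). Surface epithelium markers were higher for 4 of 9 (0.97), and endothelial and erythroid markers for 0 of 6 and 0 of 5. Stress and dissociation genes were higher for 3 of 8 (Atf3, Hspa1a and Hspa1b), with a list median of 1.05. Theca and stroma markers summed to 56.7, 112 and 136 FPKM at 10 months, against 29.7 to 33.4 FPKM at 2 months, and immune markers to 24.05, 56.9 and 81.7 FPKM, against 5.54 to 8.31 FPKM. All 3 libraries at 10 months were above all libraries at 2 months in both sums. The part of these cells and of the stress genes in the differences of Slc2a1, Eno1 and the other members by age was not tested.

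Among related genes of metabolism and its regulators, 0 passed by age in any list. At an unadjusted p under 0.05, 2 of 12 regulators were lower (9630033F20Rik, log2 -0.61, and Pdk1, -0.48) and 3 higher (Pfkfb4, 0.68, Pdk4, 0.80, and Pdp1, 0.93). Of 12 HIF and MYC regulators, 0 were lower and 2 higher by the same cutoff, Myc and Egln3 (log2 0.77). Myc was at 72.8, 36.3 and 61.9 FPKM at 10 months and at 12.2, 18.2 and 15.5 FPKM at 2 months, without overlap (log2 1.79 ± 0.27, limma adjusted p = 0.152). Of 18 hypoxia targets, 1 was lower (Ak4, -0.42) and 2 higher (Ndrg1, 2.02, and Car12, 0.68). Slc16a1 (-0.41) and Prps2 (-0.44) were lower in their lists, with 0 higher. Gluconeogenesis and glycogen genes had 1 lower and 1 higher, and other glycolytic enzymes 1 higher.

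Mural cells at 2 months were also set against cumulus cells at 10 months, a comparison in which cell type and age differ together and which shares libraries with both comparisons above. Priming is given for the mural donors only here too. By limma, 6 of 10 genes were lower in mural cells, beside 7.77% of all genes, and 0 were higher, beside 6.94%, also at an unadjusted p under 0.05. Both mural libraries lay below all 3 cumulus libraries for 8 of 10 genes, beside 28.1% of all genes. Pfkp (log2 -2.20), Ldha (-1.65), Pgk1 (-1.26), Pfkl (-1.16), Slc2a1 (-1.11) and Eno1 (-0.63) passed, with limma adjusted p from 0.00421 to 0.0353. Gapdh (-0.76, limma adjusted p = 0.0716), Hk2 (-0.65, 0.0872), Aldoa (-0.52, 0.205) and Hk1 (0.37, 0.171) did not. Slc2a1 had the lower value of its 2 comparisons here, -1.11 against -0.78, and Eno1 the higher, -0.63 against -1.09, side by side values that share the mural libraries.

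The count of 6 was 8 without cumulus replicate 3 at 10 months, 4 without cumulus replicate 1 or 2 at 10 months, 4 without cumulus replicate 2 at 2 months, 1 (Pfkp) without mural replicate 1 and 0 without mural replicate 2. With Eno1 and Gm5506 summed it was 5, the sum standing at log2 -0.74 (limma adjusted p = 0.113).

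Cumulus-oocyte complexes, which hold the oocyte with its cumulus cells, have 1 library per strain, so no test is given. Strain, age and tissue differ together from the C57BL/6 groups and cannot be told apart. Against cumulus cells priming may differ as well, since it is not given for their donors. Against the mean of cumulus cells at 2 months, 0 of 10 genes were lower by 2-fold or more in both libraries, beside 1.84% of 12454 genes, and 0 were higher, beside 10.9%. Slc2a1 stood at 35.1 FPKM in each of the BDF1 and DBA/2 complexes, within the cumulus range, and so did Aldoa at 976 FPKM in the BDF1 library. Both complexes lay above every cumulus library at 2 months for 1 of 10 genes (Eno1, at 540 and 584 FPKM), beside 37.6% of all genes. The sum of Eno1 and its copy Gm5506, at 833 and 830 FPKM, lay within the cumulus range of 651 to 934 FPKM. The 2 complex libraries both lay below every cumulus library at 2 months for 6 of 10 genes, beside 17.1% of all genes. Pgk1 was at 350 and 341 FPKM, Pfkp at 39.3 and 44.4 FPKM, Hk1 at 5.74 and 3.71 FPKM and Hk2 at 8.57 and 12.3 FPKM. Pfkl, at 83.6 and 78.6 FPKM, and Ldha, at 1057 and 973 FPKM, were the other two, closer to the lowest cumulus libraries at 87.3 and 1078 FPKM. All 13 oocyte markers were higher in the complexes by 2-fold or more, and their part in the values of the 10 genes was not tested.

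Against mural cells, 4 of 10 genes were higher by 2-fold or more in both complex libraries (Pfkp, Pfkl, Eno1 and Ldha), beside 15.4% of 12916 genes, and 0 were lower, beside 6.89%. Their log2 differences were 1.58 and 1.75 for Pfkp, 1.26 and 1.17 for Pfkl, 1.36 and 1.47 for Eno1, and 1.75 and 1.63 for Ldha in the BDF1 and DBA/2 libraries. Medians of all genes in the same comparison were 0.25 and 0.21. Gapdh stood at 1864 and 1765 FPKM in the complexes. Hk1 was the only one of the 10 below the mural mean in both libraries, by -0.86 and -1.38.

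Some related genes stood higher in the complexes than in cumulus cells. Of 11 other glycolytic enzymes that passed the filter, 3 were higher by 2-fold or more in both libraries, all named after their values were seen. They were Ldhb, the form of lactate dehydrogenase of oxidative tissues, at 820 and 664 FPKM against 236 ± 116 FPKM (SD, n = 3), Bpgm, a phosphoglycerate mutase, at 200 and 197 FPKM against 43.1 ± 42.3 FPKM, and Ldhc, the form of germ cells, at 4.33 and 4.42 FPKM against 0.240 ± 0.416 FPKM. Ldha therefore made up 56.3 and 59.5% of Ldha and Ldhb in the complexes, while its own level was 0.23 and 0.35 below the cumulus mean on the log2 scale.

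The 10 genes varied together to different degrees over the 10 libraries. Each gene's log2 profile was compared with the mean of the 10 scaled profiles, of which it is a part. Pearson's r was 0.98 for Gapdh and Pgk1, 0.98 for Pfkl and Ldha, 0.95 for Pfkp, 0.89 for Aldoa, 0.85 for Slc2a1, 0.73 for Eno1, 0.72 for Hk2 and -0.24 for Hk1. Among 9397 genes with a mean of at least 5 FPKM, the 10 non-members closest to that mean were Cct3 (r = 0.996), Tpi1 (0.994), Vcp, Ran, Higd1a, Ptma, Rpl36al, Pkm2 (0.98), Snrpg and Atrip (0.977). Tpi1 and Pkm2 are glycolytic enzymes, Cct3 is a chaperonin subunit and Ran a GTPase of nuclear transport. The points share libraries, depth and the contrast of cell types, so these values are a description.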

How the data were processed

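Expression values are FPKM deposited by the authors in 1 table of 10 libraries, and the submitters' processing notes name TopHat2 2.1.0, Cufflinks 2.1.0 and build mm9. Annotation, strand, read depth and handling of multiply mapped reads are not given there. Deposited FPKM summed to 470377 to 603460 per library, and 1 repeated header line was dropped. FPKM are not counts, so log2(FPKM + 1) was tested with limma 3.58.1 (trend, R 4.3.3) in a model with a term per C57BL/6 group for the 12412 genes whose FPKM averaged 1 or more in those 8 libraries (5 residual degrees of freedom), two-sided, with Benjamini-Hochberg adjustment over all genes and a threshold of 0.05. Fold changes on this scale understate those of low genes, and intervals are 95% intervals. The script was tested on simulated data. Complexes, with 1 library per strain, were described by their log2 difference from a group mean, called past 2-fold in both libraries. Shares used exact permutation tests. The 10 genes and all lists were chosen with earlier results of these data known. Beside the 10 genes, the text names up to 4 genes per list with the smallest p, preferring those past the test, and the 10 genes most correlated with the members' mean profile. Promoters are RefSeq's on GRCm38.p6 and transcripts GENCODE vM21. Alternatives covered pseudocounts, filters, scaling, the groups fitted, a replicate block, each library left out and Eno1 summed with its copy. Python 3.11.15 with pandas 2.3.3, numpy 2.4.6, scipy 1.17.1 and matplotlib 3.10.9 did the rest.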

Additional observations from a re-analysis of the deposited data

How the results depend on the processing

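Over 18 alternatives, all 10 genes kept the sign of their difference in both comparisons with mural cells. Not all alternatives bear on each comparison. Leaving out a cumulus library at 10 months touches the comparison at 2 months only through the shared spread and the filter. Summing Eno1 with its copy changes the values of Eno1 alone. The 9 lower than cumulus cells at 2 months stayed past the test in 7 (Aldoa), 12 (Gapdh), 13 (Hk2), 15 (Slc2a1), 16 (Pfkl), 17 (Pgk1, Eno1 and Ldha) and 18 (Pfkp) of 18. Scaling to an equal sum gave 1 gene higher in mural cells (Hk1). With single libraries left out, the count of 9 ranged from 1 to 9, and that of 6 against cumulus cells at 10 months from 0 to 8, with a lone mural library assumed to vary like the other groups. The latter count was 2 when only its own groups were fitted. Scaling to an equal sum, median centring and quantile normalization each gave 1 gene (Hk1) 2-fold lower in the complexes than in mural cells, where the deposited values gave 0, and 3 higher in place of 4. The causes were not tested.

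By age no gene of the 10 passed under any of the 18 alternatives. Leaving out cumulus replicate 2 at 10 months brought the calls over all genes to 46 lower and 234 higher. Differences near 0 changed sign: scaling to an equal sum gave 0.05 for Hk1 and 0.06 for Pfkp, quantile normalization gave 0.01 for Pfkp, and leaving out a library gave ranges of -0.09 to 0.05 for Hk1, -0.18 to 0.17 for Pfkp and -0.28 to 0.02 for Gapdh.

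It is not known whether replicate numbers shared by groups pair the libraries. Deviations from group means of libraries with the same number correlated at -0.05 to 0.21, with 4 of 7 not over 0.1. With groups of 2 or 3 libraries, and no comparison with libraries of unlike number, these values cannot settle it. With a replicate block, 9 genes were lower in mural cells than in cumulus cells at 2 months and 7 than at 10 months, with 0 higher and 0 called by age. Calls over all genes against 2 months went from 1396 lower and 1203 higher to 2051 and 1310. Depth is unknown, and groups of 2 or 3 libraries limit what size of difference can pass.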
